A study of Mus musculus with 8 samples.

Results

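The AP-1 and BATF factors are a family of transcription factors with a basic leucine zipper, and 10 of them were followed here across 8 libraries of donor T cells. Members were the rows of the deposited tables whose gene name is Jun, Junb, Jund, Fos, Fosb, Fosl1, Fosl2, Batf, Batf3 or Atf3, which are 10 of 25078 gene rows. RNA came from splenic donor T cells taken 6 days after hematopoietic cell transplantation (HCT). WT donors were C57BL/6 mice, and STAT3KO donors were C57BL/6 mice with a floxed Stat3 gene and a Cre recombinase under Cd4 control, which acts in both CD4 and CD8 T cells because the thymic precursors of both express Cd4. All recipients were irradiated BALB/c mice that also received T cell-depleted bone marrow of WT C57BL/6 mice, and donor T cells were sorted as H-2Kb+ TCRβ+ cells that were CD4+ or CD8+. The 4 groups (CD4 or CD8 T cells of WT or STAT3KO donors) have 2 libraries each, and each library pools sorted cells of several recipients. The labels number the 2 libraries of a group 1 and 2, and these numbers are used as the names of the libraries below. What a number stands for is not given for these libraries in the sources used here. The study's methods speak of batches for T cell receptor sequencing alone. In the titles, the 4 libraries of number 1 carry serial numbers near each other, and those of number 2 carry higher ones, also near each other.

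AP-1 is a dimer. JUN proteins (encoded by Jun, Junb and Jund) pair with each other or with FOS proteins (Fos, Fosb, Fosl1 and Fosl2), which cannot pair among themselves, and the dimer binds a short palindromic site in promoters and enhancers. In T cells, AP-1 forms after T cell receptor and costimulatory signals through MAP kinases, and it acts with NFAT on cytokine genes. BATF and BATF3 lack a transactivation domain and pair with JUN proteins, often together with IRF4 at composite sites, and BATF is known for its roles in Th17, Tfh and effector CD8 T cells. ATF3 is a stress-responsive factor of the same family. Jun, Fos, Fosb, Junb and Atf3 are also classical immediate-early genes, whose RNA appears and decays quickly after a stimulus.

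In the deposited coordinates (mm10), Jun lay at chr4:95049036-95052222, Junb at chr8:84976909-84978748 and Jund at chr8:70697739-70700616. Each of these is a single exon, so these 3 genes have no intron. Fos lay at chr12:85473890-85477274 and Batf at chr12:85686720-85709087, 209.4 kb away on the same strand. Batf3 at chr1:191098414-191108943 and Atf3 at chr1:191170297-191183333 were 61.4 kb apart. Fosb lay at chr7:19302696-19310045, Fosl1 at chr19:5447698-5455938 and Fosl2 at chr5:32136472-32157839. All 10 are protein coding in GENCODE M21. In that annotation, exons of Jun share 232 bases with the antisense gene Junos, those of Junb 173 bases with Prdx2, those of Jund 877 bases with the antisense gene Gm11175 and those of Fosl1 1163 bases with Ccdc85b, in each case on the opposite strand. Whether reads were counted by strand is not stated, so the counts of these 4 members are uncertain to that extent.

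The 250 bases before the start of each gene were read from RefSeq (GRCm38.p6) for the 9 members found there. They are shown for Jun and Fos, which were lower in number 2 in every group. Batf is shown as the 1 member with an adjusted p under 0.05 for STAT3KO against WT CD4 T cells, fitted with group means. Other settings gave 0 to 6 such members in that comparison. Atf3 is shown because its difference between STAT3KO and WT turned with the replicate number. Capitals mark TGACATCA, the variant AP-1 site known from the Jun promoter, or TGACG on either strand, the half-site of the cyclic AMP response element. The windows were chr4:95052223-95052472 (minus strand), chr12:85473640-85473889 (plus strand), chr12:85686470-85686719 (plus strand) and chr1:191183334-191183583 (minus strand), all written 5′ to 3′ along the gene.
Jun: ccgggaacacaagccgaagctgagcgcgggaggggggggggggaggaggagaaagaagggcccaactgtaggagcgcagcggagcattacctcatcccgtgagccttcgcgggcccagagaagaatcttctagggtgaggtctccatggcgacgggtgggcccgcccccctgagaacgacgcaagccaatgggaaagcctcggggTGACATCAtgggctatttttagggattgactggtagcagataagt
Fos: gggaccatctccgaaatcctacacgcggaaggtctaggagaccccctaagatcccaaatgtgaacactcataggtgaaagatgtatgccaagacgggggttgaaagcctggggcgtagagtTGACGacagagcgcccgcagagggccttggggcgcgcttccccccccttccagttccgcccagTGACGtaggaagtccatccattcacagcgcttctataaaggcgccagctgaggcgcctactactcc
Batf: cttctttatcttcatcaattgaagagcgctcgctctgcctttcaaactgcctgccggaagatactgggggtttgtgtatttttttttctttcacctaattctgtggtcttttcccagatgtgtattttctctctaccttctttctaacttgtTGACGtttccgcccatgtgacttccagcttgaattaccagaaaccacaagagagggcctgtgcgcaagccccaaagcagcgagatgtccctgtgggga
Atf3: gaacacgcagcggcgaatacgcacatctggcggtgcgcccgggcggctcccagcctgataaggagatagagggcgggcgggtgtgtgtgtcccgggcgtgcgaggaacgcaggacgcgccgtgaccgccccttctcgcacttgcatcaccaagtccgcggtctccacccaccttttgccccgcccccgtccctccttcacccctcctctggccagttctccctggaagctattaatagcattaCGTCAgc
TGACATCA ended 38 bases before the start of Jun, and 2.928% of 32851 promoter windows of the same length hold these letters on either strand. TGACG was found in 5 of the 9 members (Junb, Fos, Fosb, Batf and Atf3), against 17.765% of all windows, with 2 copies before Fos. The nearest GENCODE M21 transcript starts 30 bases downstream of the RefSeq start used here for Junb and 1210 bases downstream for Jund, so these 2 windows are upstream of the RefSeq start but not directly upstream of the GENCODE one. For Fosb, Batf, Batf3, Atf3 and Fosl2 it lay upstream of the RefSeq start, beyond the window for Fosl2 and within it for the others. The marked copy before Atf3, at -7 to -3 from the RefSeq start, thus lies inside the GENCODE transcript. The letters TGANTCA (6.749% of windows), TGACGTCA (1.546%) and the CArG box (1.467%) were in none of the 9 windows. TTCNNNGAA, the palindrome that STAT factors bind, was found before Batf3 alone (7.02% of windows), and its copy is TTCCACGAA. Windows with TGACGTCA are also counted for TGACG. These are matches of letters only.

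The libraries held between 20171396 and 23282757 counts. Levels per library are given below in CPM (counts brought to a common library size, with TMM factors for composition), and levels of different genes are compared in the authors' RPKM, which also divides by exon length. Of 25078 rows, 12428 passed the filter on low counts and were tested, among them 9 of the 10 members. Stat3 fell in STAT3KO libraries to 32.4% of WT in CD4 and to 30.3% in CD8 T cells, and Cd4, Cd8a and Cd8b1 followed the labels in all 8 libraries. The summed level of 10 macrophage and monocyte genes was 25 to 58.2 CPM in the libraries of number 1 and 81.9 to 155 CPM in those of number 2, against 3250 to 4120 CPM for 6 T cell genes. Erythroid genes summed to at most 6.72 CPM and neutrophil genes to at most 22.3 CPM, and the sums of B cell genes (37.5 to 170 CPM) and dendritic cell genes (17 to 274 CPM) came largely from Cd22 and Itgax. The B cell gene Ms4a1 stayed at or below 0.147 CPM, whereas Cd79b was at 0.892 to 12.8 CPM. The dendritic cell genes Clec9a and Siglech were at 0 in all 8 libraries, whereas H2-Ab1 was at 0.687 to 4.91 CPM and Zbtb46 at 0.663 to 1.78 CPM. The NK cell sum was 18.9 to 48.6 CPM. Fewer cells of a type and less RNA per cell cannot be told apart in such bulk libraries, and p-values measure the spread between 2 pools a group.

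By group mean, Junb was the most abundant member per length in all 4 groups. It had 553 ± 37.1 RPKM with WT and 381 ± 72.2 with STAT3KO donors in CD4 T cells. In CD8 T cells it had 291 ± 13.6 with WT and 224 ± 34 with STAT3KO donors (mean ± SD, n = 2). Fos and Batf came next in every group. The ranges of Junb and Fos overlapped in both CD4 groups. There, the libraries of number 1 held more Fos than Junb (705.6 against 578.9 RPKM with WT and 401.6 against 330.2 with STAT3KO donors). Fos had 482 ± 316 RPKM and Batf 302 ± 33.1 RPKM in WT CD4 T cells, and the ranges of these neighbours overlapped. In WT CD8 T cells, Fos (198 ± 94.8 RPKM) and Batf (194 ± 0.779 RPKM) overlapped too, whereas both were below Junb. Jun, Jund and Fosb followed at 58.9 to 225 RPKM, and in every group Jun overlapped with Jund. A gap separated these 6 from the rest: Fosb, the sixth, was at 58.9 to 152 RPKM, whereas Fosl2 was at 7.88 to 15.6 RPKM and Atf3 at 4.99 to 13.9 RPKM. Fosl1 (0.582 to 1.06 RPKM) and Batf3 (0.155 to 0.677 RPKM) were the least abundant. The plot of levels by library shows that this order hides a large spread between the libraries of a group for Jun, Fos and Atf3.

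**Figure D1:**
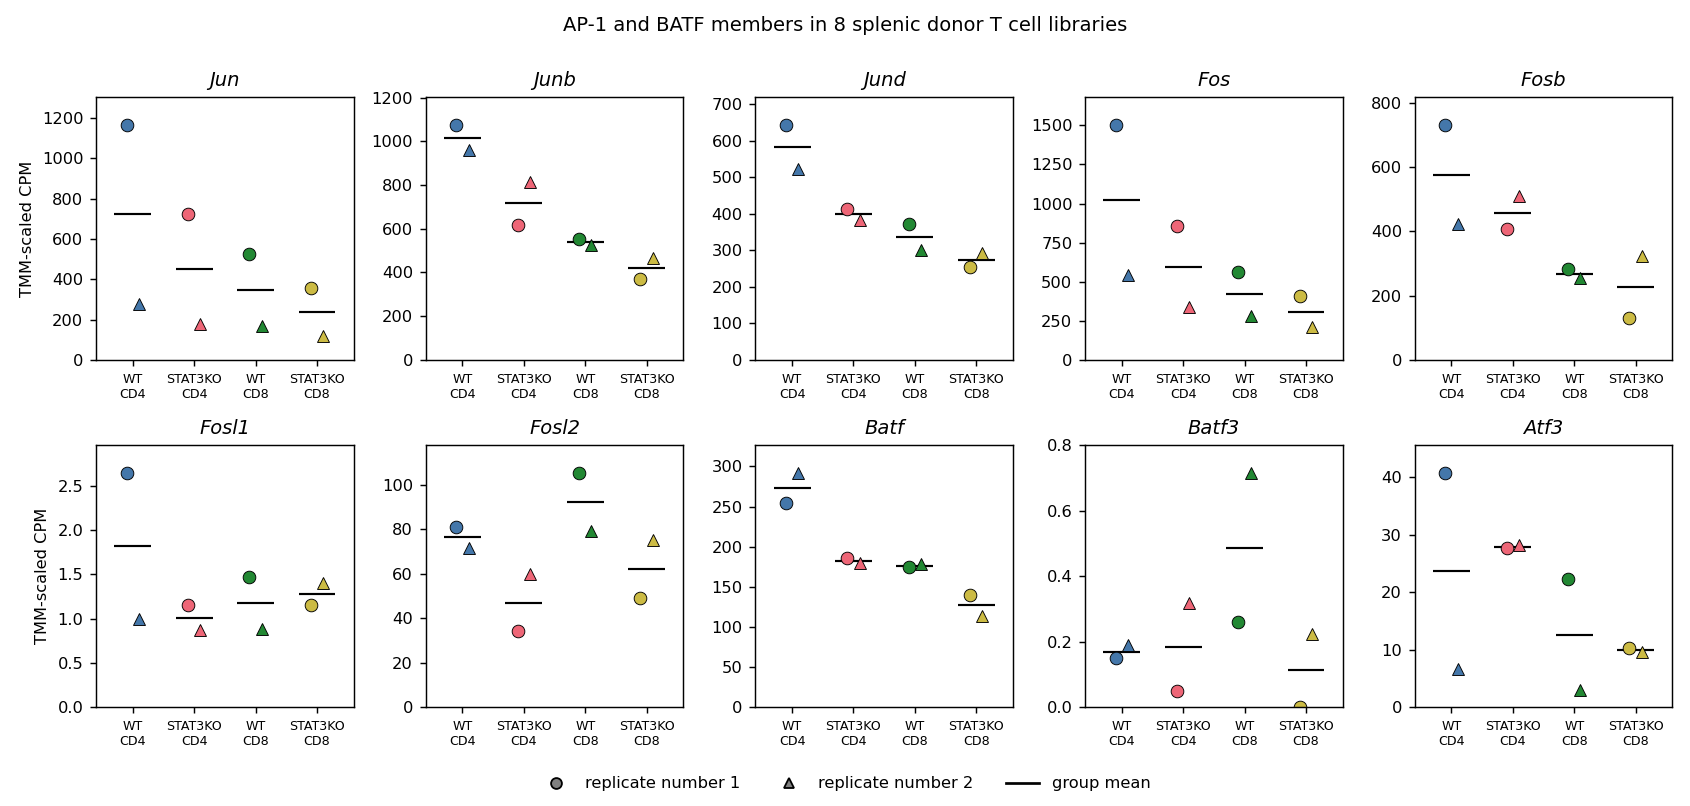
TMM-scaled CPM (vertical axes, from 0) of the 10 members in each of the 8 libraries, by group; circles are libraries of number 1, triangles those of number 2, and bars the mean of the 2 libraries. Jun and Fos are lower in number 2 in all 4 groups, Atf3 is far lower in number 2 in the WT groups and at similar levels in the STAT3KO groups, and Batf has similar levels in both libraries of a group.

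On the JUN side, Jun, the founding member of AP-1, had 1164 CPM (number 1) and 279 CPM (number 2) with WT donors and 724 and 177 with STAT3KO donors in CD4 T cells, 523 and 167 with WT donors and 358 and 119 with STAT3KO donors in CD8 T cells. The library of number 1 was the higher in every group, and WT and STAT3KO overlapped in both cell types. Junb, a JUN protein with weaker transactivation that also pairs with BATF, had 1073 and 960.5 CPM with WT donors and 615 and 816 with STAT3KO donors in CD4 T cells, 553 and 526 with WT donors and 372 and 468 with STAT3KO donors in CD8 T cells. All 4 groups of Junb were separate. Jund, the JUN gene known for its steady expression, had 642 and 522 CPM with WT donors and 414 and 383 with STAT3KO donors in CD4 T cells, 372 and 300.5 with WT donors and 255 and 293 with STAT3KO donors in CD8 T cells. For Jund, STAT3KO was below WT without overlap in each cell type.

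On the FOS side, Fos, the main inducible partner of JUN proteins, had 1500 and 541 CPM with WT donors and 857 and 337 with STAT3KO donors in CD4 T cells, 559.6 and 281 with WT donors and 407 and 209.7 with STAT3KO donors in CD8 T cells. Like Jun, it was higher in number 1 in every group, and genotypes overlapped. Fosb had 730.5 and 423 CPM with WT donors and 407 and 511 with STAT3KO donors in CD4 T cells, 283 and 254 with WT donors and 130.3 and 323 with STAT3KO donors in CD8 T cells. In Fosb, number 1 was the higher library in the WT groups and the lower in the STAT3KO groups. Fosl2 (FRA2), which has no strong transactivation domain, had 81.2 and 71.8 CPM with WT donors and 34.2 and 60.1 with STAT3KO donors in CD4 T cells, 105 and 79.2 with WT donors and 49.2 and 75.4 with STAT3KO donors in CD8 T cells. STAT3KO was below WT without overlap in each cell type, and the lowest value of each cell type was the STAT3KO library of number 1. Fosl1 (FRA1) had between 0.868 and 2.64 CPM, the highest in the WT CD4 library of number 1.

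Batf had 254 and 292 CPM with WT donors and 186 and 179.9 with STAT3KO donors in CD4 T cells, 175 and 178 with WT donors and 140.1 and 114 with STAT3KO donors in CD8 T cells. The 2 libraries of a group were close, and STAT3KO was below WT without overlap in both cell types. Batf3 was at the edge of detection, with 0 to 17 counts a library, where 3 counts correspond to at most 0.149 CPM. It did not pass the filter and was not tested. Atf3 had 40.8 and 6.66 CPM with WT donors and 27.7 and 28.3 with STAT3KO donors in CD4 T cells, 22.3 and 2.99 with WT donors and 10.4 and 9.61 with STAT3KO donors in CD8 T cells. The WT libraries of Atf3 lay on either side of the STAT3KO libraries in both cell types.

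Summed per length, Jun, Junb and Jund made up 48.8% to 54.9% of the RPKM of the 10 members in all 8 libraries. The share of Fos, Fosb, Fosl1 and Fosl2 was 29.6% to 38.4% in number 1 and 25% to 27.4% in number 2. That of Batf, Batf3 and Atf3 was 12.6% to 20% in number 1 and 18.2% to 23.3% in number 2. Within the JUN side, the level of Junb was 1.47 to 1.83 times that of Jun in number 1 and 5.45 to 7.97 times in number 2. The ratio of Batf to Fos, which can both pair with JUN proteins, was 0.395 to 0.803 in number 1 and 1.25 to 1.48 in number 2, so that the order of these genes turned with the number. The sum over the 10 members ran from 707 RPKM in a STAT3KO CD8 library to 2380 RPKM in a WT CD4 library. The plot of summed levels shows these sides library by library.

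**Figure D2:**
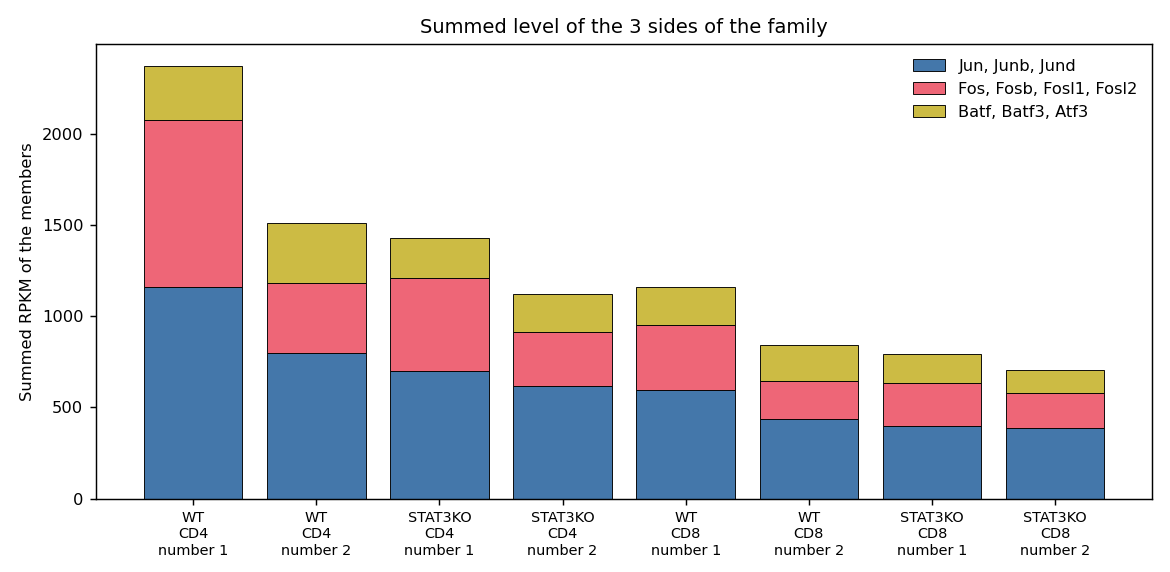
Summed RPKM (vertical axis, from 0) of Jun, Junb and Jund, of Fos, Fosb, Fosl1 and Fosl2, and of Batf, Batf3 and Atf3 in each of the 8 libraries, stacked. Within each group the library of number 1 has the larger sum, and most of its excess is in the JUN and FOS sides.

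STAT3KO and WT CD4 T cells were compared to ask what loss of STAT3 in the donor T cells goes with. Batf was lower in STAT3KO CD4 T cells, at 182.8 against 273.1 CPM or 66.9% of WT (log2 fold change -0.58, SE 0.13, edgeR adjusted p 0.0266). It was the 1 member of 9 tested that was called, where 11.6% of all 12428 genes were called and 5.08% were called lower. The other 8 did not pass the test. Jund (-0.55, SE 0.15, edgeR adjusted p 0.0613) and Junb (-0.51, SE 0.17, edgeR adjusted p 0.094) came nearest. The values of Fos (-0.77, SE 0.62), Jun (-0.68, SE 0.92), Fosl2 (-0.70, SE 0.30), Fosl1 (-0.84, SE 0.52), Fosb (-0.33, SE 0.41) and Atf3 (0.24, SE 0.90) had edgeR adjusted p values from 0.178 to 0.898. The median over the 9 members was -0.58, and that over all genes tested 0.02. In 4 of the 9 (Junb, Jund, Fosl2 and Batf) STAT3KO was below WT without overlap, as it was in 25% of all genes tested. The Batf call was lost without WT CD4 number 2 (-0.48, edgeR adjusted p 0.122), without STAT3KO CD4 number 1 (-0.63, 0.124) and without STAT3KO CD4 number 2 (-0.56, 0.151). With the replicate block, a fit over the same 8 libraries that adds a term for the number, 6 members were called lower: Jun (-0.67, SE 0.12, edgeR adjusted p 0.00229), Fos (-0.75, SE 0.12, 0.00137), Junb (-0.52, 0.0144), Jund (-0.54, 0.00608), Fosl2 (-0.72, 0.0475) and Batf (-0.58, 0.0025). In that fit 30.1% of all genes were called. The fit takes the CD4 and CD8 libraries of a number as independent, and whether they share recipients is not stated.

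In CD8 T cells, no member passed the same test, while 2.07% of all genes did. Batf was at 127.2 against 176.5 CPM, or 72% of WT (log2 fold change -0.47, SE 0.13, edgeR adjusted p 0.102), and it was the 1 member with an unadjusted p under 0.05 (2400 of all genes had one). Batf was also the 1 member that DESeq2 called (-0.48, adjusted p 0.0161), where it called 7.89% of the genes to which it gave an adjusted p. With the replicate block, Jun (-0.52, edgeR adjusted p 0.0172), Fos (-0.44, 0.0341) and Batf (-0.47, 0.0141) were called lower, and 18.2% of all genes were called. Junb (-0.36, SE 0.17), Jund (-0.29, SE 0.15) and Fosl2 (-0.57, SE 0.29) had edgeR adjusted p values of 0.286, 0.355 and 0.347. Jun, Fos, Fosb and Atf3 had log2 fold changes of -0.53, -0.45, -0.24 and -0.33 with SE from 0.41 to 0.94, and Fosl1 had 0.12 with SE 0.52. The members' median was -0.36, against -0.01 over all genes. STAT3KO was below WT without overlap in 4 of 9 members, the same 4 as in CD4 T cells, and in 24.8% of all genes.

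The difference between these effects was tested directly. The edgeR quasi-likelihood test called no gene (0%), and 982 of all genes and no member had an unadjusted p under 0.05. Other fits did call genes, with 44 under no filter, 137 by the likelihood-ratio test, 188 (1.83%) by DESeq2 and 403 (3.24%) with the replicate block, but no member in any of these 4. Batf differed by 0.11 (SE 0.18) and Junb by 0.14 (SE 0.23) on the log2 scale, CD8 minus CD4. Jun and Atf3 had SE of 1.29 and 1.30. With the replicate block the difference was 0.16 for Jun (SE 0.17, edgeR adjusted p 0.733) and -0.65 for Atf3 (SE 0.83, 0.778).

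Because the 2 libraries of a group differed so much in some members, STAT3KO was also set against WT within each number, as the plot of STAT3KO minus WT shows. In number 1, all 9 tested members were lower in STAT3KO in CD4 as well as in CD8 T cells (48.5% and 50.1% of all genes were). In number 2, 7 of 9 were lower in CD4 and 6 of 9 in CD8 T cells (47.4% and 50.6% of all genes). Jun, Junb, Jund, Fos, Fosl2 and Batf were lower in all 4 pairs, as were 23.7% of all genes. Some of these differences were small, with Jund at 97.6% and Fosl2 at 95.1% of WT in the CD8 pair of number 2. Jun was at 62.2% and 63.5% of WT in the 2 CD4 pairs and at 68.5% and 71.4% in the 2 CD8 pairs. Fos was at 57.1% and 62.2% of WT in CD4 and at 72.7% and 74.6% in CD8. So for Jun and Fos the pairs of a cell type were close, although neither was called in the fit with group means alone, where their SE were 0.62 to 0.92. Both were called in both cell types with the replicate block. Batf was at 73.1% and 61.6% of WT in CD4 and at 80.2% and 64.1% in CD8.

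**Figure D3:**
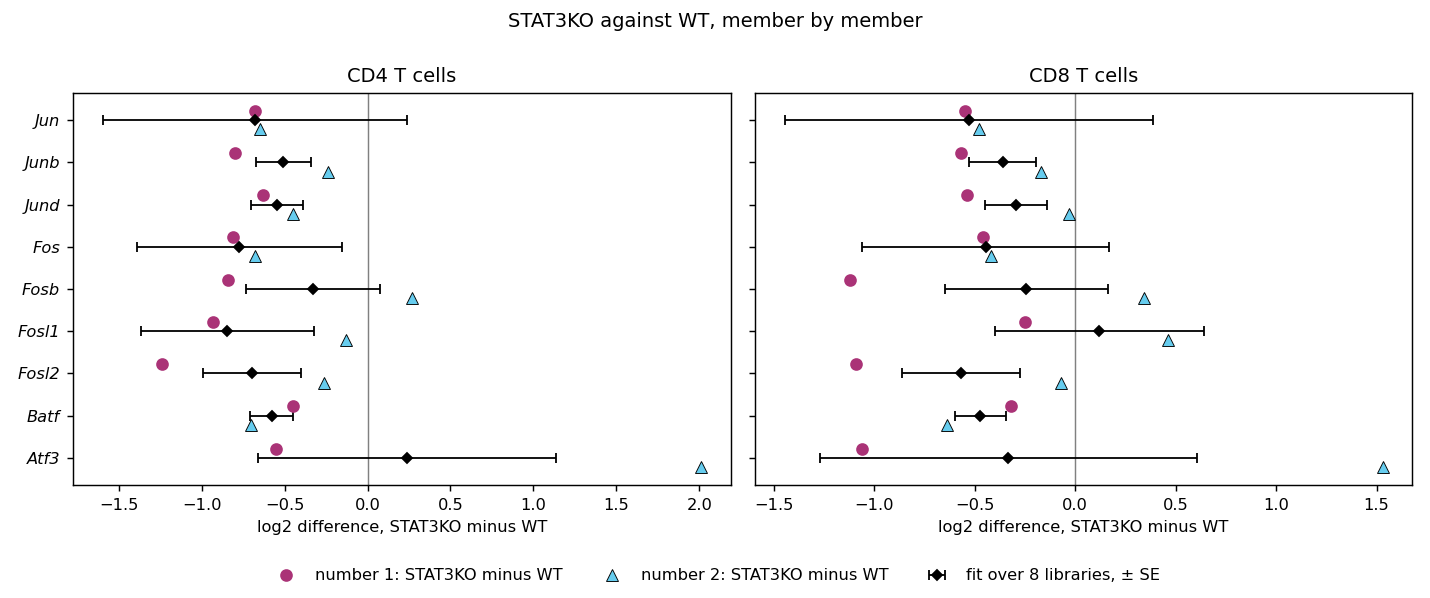
Log2 difference of STAT3KO minus WT (horizontal axes) for the 9 tested members in CD4 (left) and CD8 T cells (right); black diamonds are the edgeR fit over 8 libraries with bars of 1 SE, circles the pair of number 1 and triangles the pair of number 2 on the log2(CPM + 0.5) scale. Jun, Fos and Batf have both pairs below 0 and near each other, whereas Fosb and Atf3 have number 1 below and number 2 above 0 in both cell types.

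For other members the effect depended on the number. Atf3 in STAT3KO was at 67.8% of WT in the CD4 pair of number 1 and at 4.25 times WT in that of number 2, and in CD8 T cells at 46.8% and 3.21 times. Fosl2 was at 42.1% of WT in number 1 and 83.7% in number 2 in CD4, and at 46.7% and 95.1% in CD8 T cells. Fosb was at 55.7% and 121% of WT in CD4 and at 46.1% and 127% in CD8 T cells. A term for this difference (the STAT3KO effect in number 2 minus that in number 1, chosen after these values were seen) was called for 4 of 9 members, all higher, where 0.861% of all genes were called and 0.7% were called higher. Its values were 2.7 for Atf3 (SE 0.17, edgeR adjusted p 1e-05), 1.01 for Fosl2 (SE 0.12, 0.00321), 1.28 for Fosb (SE 0.26, 0.0436) and 0.49 for Junb (SE 0.10, 0.0477). Atf3 and Fosl2 kept the call when any 1 of the 8 libraries was left out. Fosb lost it without STAT3KO CD8 number 1 (0.79, edgeR adjusted p 0.0917), with total counts (1.24, 0.0726) and with a minimum count of 50 (1.27, 0.0516). It also lost it with DESeq2 (1.28, SE 0.57, adjusted p 0.471) and with limma on log2(RPKM + 1) or log2(RPKM + 0.1) (1.25 and 1.27, adjusted p 0.262 and 0.228). Fosl2 lost it with limma (0.90 and 0.98, adjusted p 0.156 and 0.113). Junb lost it without either WT CD4 library (0.45 for each, edgeR adjusted p 0.103 and 0.135), either STAT3KO CD4 library (0.44 and 0.45, 0.0999 and 0.0902) or either STAT3KO CD8 library (0.51 and 0.52, 0.163 and 0.12), and with total counts (0.45, 0.0847), a minimum count of 50 (0.47, 0.0595) or limma (0.46 and 0.47, adjusted p 0.27 and 0.261). Jun (0.04, SE 0.16), Fos (0.08, SE 0.16), Jund (0.35, SE 0.12), Fosl1 (1.05, SE 0.49) and Batf (-0.28, SE 0.11) did not pass. The term rests on 1 WT and 1 STAT3KO library per number in each cell type, and the fit takes the CD4 and CD8 libraries of a number as independent. Whether these were sorted from the same recipients is not stated, and if they were, the SE may be too small. Deviations from the group means correlated across genes at 0.712 between CD4 and CD8 in WT and at 0.67 in STAT3KO. Between groups of different genotype they correlated at 0.44 to 0.662. These deviations hold the difference between the numbers that the fit removes, so they cannot show a dependence beyond it. On the same term, 5 of 26 other immediate-early genes (median 0.36) and 2 of 11 heat shock genes (median 0.54) were called, all higher. So were 3 of 30 T cell genes linked to AP-1 and BATF (median 0.29), where the median over all genes was 0.02. Of 27 other basic leucine zipper factors (median 0.19), 1 was called higher and 1 lower. Of 5 BATF partners and NFAT factors 1 was called higher, and of 24 MAP kinases and other upstream genes 0 were called.

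CD8 T cells had less RNA of several members than CD4 T cells. In WT, Junb was at 53.1% of the CD4 level (log2 fold change -0.91, SE 0.17, edgeR adjusted p 0.00656), Jund at 57.8% (-0.79, SE 0.16, 0.00887) and Batf at 64.6% (-0.63, SE 0.13, 0.0103). These 3 of 9 were called, all lower, where 23.8% of all genes were called and 11.6% were called lower. In STAT3KO, Junb was at 58.7% (-0.77, SE 0.17, edgeR adjusted p 0.0242) and Batf at 69.6% (-0.52, SE 0.13, 0.0366), which makes 2 of 9, where 12.5% of all genes were called and 6.67% lower. Fosb was at 46.6% of CD4 in WT and 49.4% in STAT3KO, but with edgeR adjusted p values of 0.0931 and 0.154. Fos was at 41.2% and 51.7%, Jun at 47.8% and 53% and Jund in STAT3KO at 68.9%, and none of these passed. Fosl2 went the other way, at 121% and 132% of the CD4 level, without passing the test (0.27, SE 0.29 and 0.40, SE 0.30). Fosl1, at 19 to 53 counts a library, was at 64.7% of the CD4 level in WT and at 127% in STAT3KO (-0.62, SE 0.51 and 0.34, SE 0.53), also without passing. Atf3 was at 53.2% and 35.8%. CD8 was below CD4 without overlap in 4 of 9 members in WT (Junb, Jund, Fosb and Batf) and in these and Atf3 in STAT3KO, as it was in 30% and 28.7% of all genes. Fosl1 in STAT3KO was the 1 member higher in CD8 without overlap, as 29.6% of all genes were. Within numbers, 8 of 9 members were lower in CD8 in each WT pair and 7 of 9 in each STAT3KO pair. The share of all genes lower in these pairs was not counted. In the fit with group means, the median log2 fold change over all genes was 0.001 in WT and 0.002 in STAT3KO. With the replicate block, Jun, Junb, Jund, Fos, Fosb and Batf were called lower in WT (edgeR adjusted p 3.45e-05 to 0.0253) and in STAT3KO (0.000536 to 0.0462), where 42.1% and 29.7% of all genes were called.

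Some of these calls rested on single libraries or on the setting. Fosb in WT gained the call with no filter (-1.11, edgeR adjusted p 0.0269) or the likelihood-ratio test (-1.10, 0.0386). Jund in STAT3KO gained it with total counts (-0.55, 0.0435), no filter (-0.53, 0.0429), the likelihood-ratio test (-0.54, 0.0435), DESeq2 (-0.53, 0.00934) and only the 4 libraries compared (-0.54, 0.0349). In WT, Jund lost the call without WT CD8 number 2 (-0.66, edgeR adjusted p 0.0523) and Batf without WT CD8 number 1 (-0.63, 0.0646), and Fosb gained it without STAT3KO CD8 number 1 (-1.12, 0.0265) or number 2 (-1.11, 0.0261). In STAT3KO, Junb lost it without STAT3KO CD4 number 2 (-0.57, 0.129) or STAT3KO CD8 number 1 (-0.62, 0.132). Batf kept the STAT3KO call only without either WT CD4 library. It lost it without STAT3KO CD4 number 1 (-0.50, 0.187) or number 2 (-0.56, 0.125), WT CD8 number 1 (-0.53, 0.0587) or number 2 (-0.53, 0.0538), and STAT3KO CD8 number 1 (-0.69, 0.0518) or number 2 (-0.39, 0.186). Fosb gained it without STAT3KO CD8 number 2 (-1.82, 0.0358).

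The largest differences among the members were between libraries of the same group. In a fit with group means and a term for the number, Jun was lower in number 2 by a log2 fold change of -1.83 (SE 0.088, edgeR adjusted p 4.65e-06) and Fos by -1.19 (SE 0.088, edgeR adjusted p 4.84e-05). These 2 of 9 members were called, where 23.1% of all genes were called and 12.4% lower. Both were lower in number 2 in 4 of 4 groups, as were 22.6% of all genes. By group, the log2 differences of Jun were -2.06 with WT and -2.03 with STAT3KO donors in CD4 T cells, and -1.64 and -1.58 in CD8 T cells. Those of Fos were -1.47 and -1.35 in CD4, and -0.99 and -0.95 in CD8 T cells. The differences were larger in CD4 than in CD8 T cells, which was not tested, and those of STAT3KO and WT were near each other. Neither call was lost when any 1 library was left out. This fit, too, takes the CD4 and CD8 libraries of a number as independent, so its SE may be too small.

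**Figure D4:**
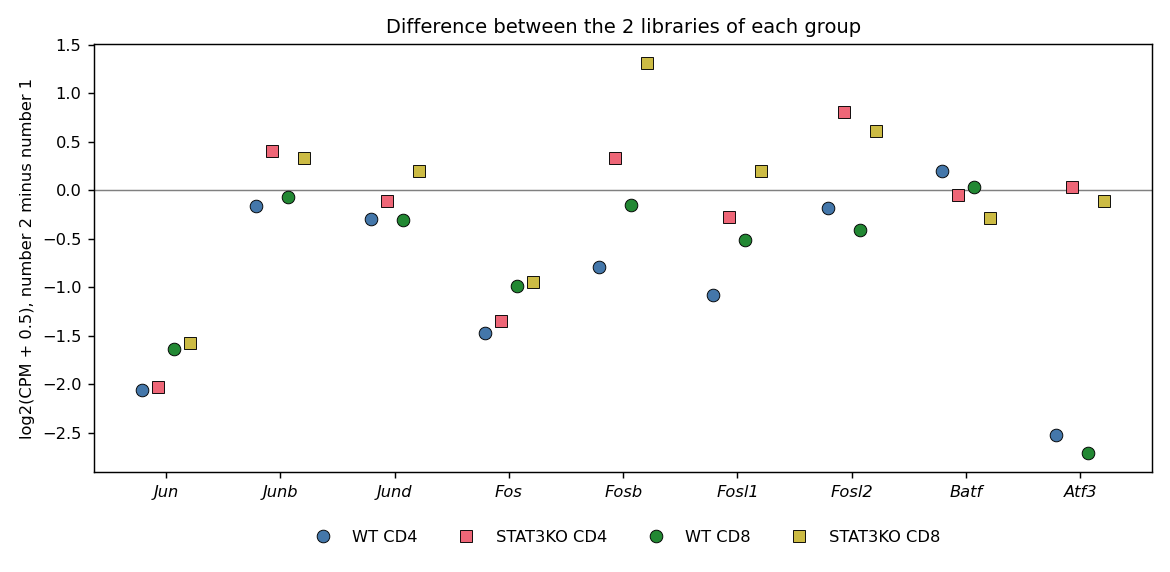
Log2(CPM + 0.5) of number 2 minus number 1 (vertical axis) for the 9 tested members in the 4 groups; circles are WT and squares STAT3KO groups, 1 point a group. Jun and Fos are below 0 in all 4 groups, Atf3 is below -2.5 in both WT groups and near 0 in both STAT3KO groups, and Fosb, Fosl2 and Junb are below 0 in the WT and above 0 in the STAT3KO groups.

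The remaining members did not share this pattern. Atf3 had -2.53 and -2.71 in the WT CD4 and CD8 groups but 0.03 and -0.11 in the STAT3KO groups, and over all groups -1.27 (SE 0.44, edgeR adjusted p 0.0599). Without STAT3KO CD4 number 1 or 2 Atf3 was at -1.86 for each (edgeR adjusted p 0.0361 and 0.0362), and without STAT3KO CD8 number 1 or 2 at -1.63 and -1.62 (0.0149 and 0.0141), which are calls. Atf3 was called as well with no filter (-1.28, 0.00788) and by the likelihood-ratio test (-1.39, 0.0134). Without STAT3KO CD8 number 1 or 2, Jund (-0.25 and -0.24, 0.015 and 0.0169) and Fosl1 (-0.90 and -0.89, 0.0451 and 0.0458) were called as well. Junb (0.13, SE 0.094), Fosb (0.16, SE 0.25), Fosl2 (0.19, SE 0.17) and Batf (-0.02, SE 0.075) did not pass.

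Genes with other roles moved with the number too. All 11 heat shock genes were called lower in number 2 (median -1.18). None was called in a STAT3KO comparison by edgeR or DESeq2 or had an unadjusted p under 0.05 there. Those fits have no term for the number, so its difference enters their SE (3.03 for Hspa1a in CD4), and the missing calls do not show equal levels. All 11 were lower in STAT3KO CD4 T cells (median -0.31), and 8 were lower and 3 higher in STAT3KO CD8 T cells (median -0.21). Hspa1a, an inducible HSP70 gene that shares near-identical sequence with Hspa1b, had 1031, 603.1, 409 and 276 CPM in the 4 libraries of number 1 but 0.284, 3.11, 0.126 and 2.62 CPM in those of number 2 (CD4 of WT, CD4 of STAT3KO, CD8 of WT, CD8 of STAT3KO; edgeR adjusted p 8.22e-06). It was thus near the limit of 3 counts in the WT libraries of number 2. Of 10 macrophage and monocyte genes, 9 were called higher in number 2, where Jun and Fos were lower. Transcripts of the other lineage were higher there too, with Cd8a in CD4 libraries at 1.7 and 2.89 CPM in number 1 and 11.2 and 16 CPM in number 2. The part of any of these in the Jun and Fos differences was not tested.

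Of 26 other immediate-early genes, 12 were called lower and 5 higher in number 2 (median -0.28). The lowest was Rgs1, a regulator of G protein signaling (-1.38, SE 0.096, edgeR adjusted p 3.86e-05), and the highest Dusp6, a phosphatase of ERK (0.49, SE 0.11, edgeR adjusted p 0.0127). In STAT3KO, 1 gene of this list was called in each cell type, Socs3, the feedback inhibitor of STAT3 signaling. Socs3 was lower in STAT3KO by a log2 fold change of -1.65 in CD4 (SE 0.23, edgeR adjusted p 0.00474) and of -1.41 in CD8 T cells (SE 0.23, edgeR adjusted p 0.0292). Unlike Jun and Fos, it was higher in number 2 (0.33, SE 0.085, edgeR adjusted p 0.0194).

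The profiles most like those of the members were looked up by the root-mean-square distance between log2 CPM profiles centred on their means, over 8 libraries and 8844 genes. Nearest to Fos were Ppp1r15a (0.279), Bag3 (0.286) and Egr1 (0.303), where the median gene was at 0.88. Nearest to Jun were Fos (0.331), Dnajb1 (0.341) and Bag3 (0.379), with a median of 1.087. Junb had Mfsd6 (0.122), Syt11 (0.123) and Pde4d (0.124), and Batf had Fam98c (0.088), Fam118a (0.095) and Cdon (0.115). Bag3, for example, in CD4 T cells had 43.8 and 11 CPM with WT and 16.7 and 7.95 with STAT3KO donors, so it was higher in number 1 as Fos was.

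Of 27 other basic leucine zipper factors tested, 1 was called higher and 2 lower in STAT3KO CD4 T cells, and 1 higher and 1 lower in CD8 T cells. Creb1, which binds the cyclic AMP response element, rose in both (0.89, SE 0.11, edgeR adjusted p 0.00361 in CD4, and 0.78, SE 0.11, 0.0227 in CD8). In CD4 T cells it had 145 and 128 CPM with WT donors and 259.9 and 246 with STAT3KO donors, without overlap. Atf6, a sensor of endoplasmic reticulum stress, fell in both (-0.99, SE 0.10, edgeR adjusted p 0.00181 in CD4, and -0.61, SE 0.10, 0.0316 in CD8). Cebpd in CD4 T cells had 18.2 and 10 CPM with WT donors and 0.95 and 0.96 with STAT3KO donors (-3.88, SE 0.48, edgeR adjusted p 0.00344). Between the numbers, 3 were called higher and 6 lower. The highest was Maff (1.03, SE 0.18, edgeR adjusted p 0.00403) and the lowest Cebpd (-0.78, SE 0.20, edgeR adjusted p 0.0185).

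Among BATF partners and NFAT factors, 0 of 5 were called in either STAT3KO comparison by edgeR or DESeq2, and 0 in CD4 and 1 in CD8 T cells had an unadjusted p under 0.05. Irf4, the partner of BATF, averaged 233.5 CPM with WT and 287.7 with STAT3KO donors in CD4 (0.30, SE 0.21, edgeR adjusted p 0.41) and 224.6 and 251.4 CPM in CD8 T cells (0.16, SE 0.21, edgeR adjusted p 0.747). While Batf was lower in all 4 pairs, Irf4 had log2 differences of 0.04 and 0.60 in the CD4 pairs and -0.22 and 0.53 in the CD8 pairs of number 1 and 2. Nfatc1 was lower in number 2 (-0.34, SE 0.087, edgeR adjusted p 0.0191), as 2 of the 5 were. Of 24 MAP kinases and other upstream genes, 4 were called lower in STAT3KO CD4 and 0 in CD8 T cells, where 3 had an unadjusted p under 0.05 and DESeq2 called 2. Mapk12 (p38γ) was the lowest, at 1.5 and 1.28 CPM with WT and 0.25 and 0.274 with STAT3KO donors (-2.38, SE 0.47, edgeR adjusted p 0.0179). Between the numbers, 1 was called higher (Mapk8, JNK1, 0.23, SE 0.07, edgeR adjusted p 0.0408) and 5 lower, the lowest of them Map3k14, the kinase NIK (-0.37, SE 0.078, edgeR adjusted p 0.00879).

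Of 30 T cell genes linked to AP-1 and BATF, 3 were called higher and 10 lower in STAT3KO CD4, and 0 higher and 5 lower in STAT3KO CD8 T cells. Il10, an anti-inflammatory cytokine, was the highest in CD4, with 64 and 38.2 CPM in WT and 139.5 and 149.8 CPM in STAT3KO (1.5, SE 0.29, edgeR adjusted p 0.0178). Il17a, the Th17 cytokine, was the lowest in both, with 1.3 and 1.18 CPM with WT and 0 and 0.0457 with STAT3KO donors in CD4 T cells (edgeR adjusted p 0.0178), and 10.1 and 4.72 CPM with WT and 1.01 and 0.271 with STAT3KO donors in CD8 T cells (edgeR adjusted p 0.0412). Its STAT3KO CD4 values rest on 0 and 1 counts. Between the numbers, 6 were called higher and 7 lower. The highest was Ccnd1 (2.09, SE 0.37, edgeR adjusted p 0.00407), at 2 to 28 counts a library, and the lowest Il17a (-0.92, SE 0.29, edgeR adjusted p 0.0468). Of 4 genes kept as checks of STAT3 loss, 4 in CD4 and 3 in CD8 T cells were called lower. This list includes Socs3 and the deleted gene Stat3 itself, which are both given above. The lowest of the 4 was Bcl3 (-2.52, SE 0.17, edgeR adjusted p 0.000729, and -2.15, SE 0.17, 0.00536).

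**Figure D5:**
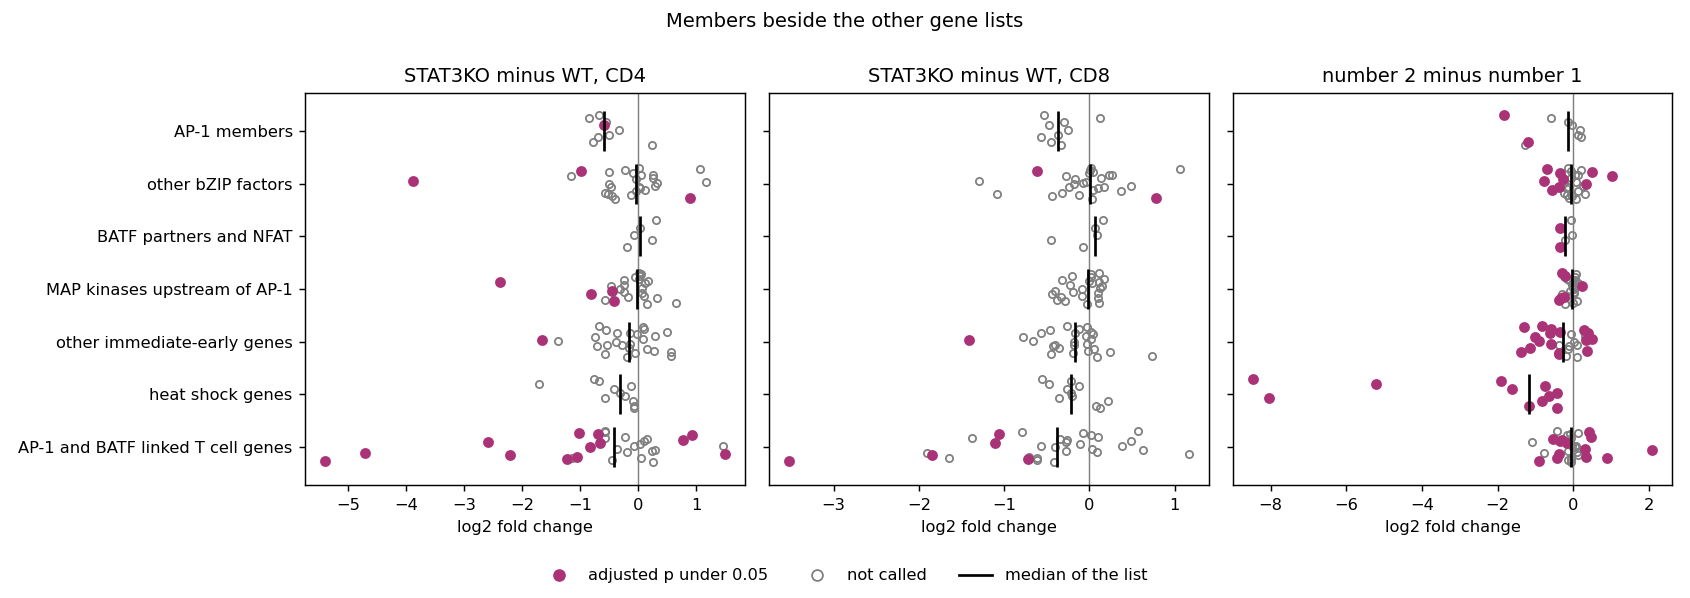
Log2 fold changes from the edgeR fits (horizontal axes) of the members and of 6 other gene lists for STAT3KO minus WT (CD4 left, CD8 middle) and for number 2 minus number 1 (right); filled points are genes with an adjusted p under 0.05, open points the other genes tested, bars the medians. Of the 9 members, 8 sit below 0 in each STAT3KO panel, with Batf called in CD4 T cells and none in CD8, and in the panel of the numbers the heat shock list has all 11 genes called lower.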

How the data were processed

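Messenger RNA was measured in 8 libraries, grouped by the labels' titles, cell type and genotype. Per the study's methods, the authors aligned reads to mm10 with STAR and counted them with HTSeq. The deposited tables hold raw counts by gene and, from the same reads, the authors' RPKM (counts scaled by exon length and library size). Growth and treatment fields of the labels describe an adipogenic line and were not used. A spreadsheet had made dates of 26 gene names, none of them a member.

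The counts were filtered with filterByExpr (minimum count 10), scaled by TMM (factors 0.982 to 1.03) and fitted over all 8 libraries with a mean per group in edgeR 4.0.16 (R 4.3.3, quasi-likelihood test, two-sided, Benjamini-Hochberg adjusted p under 0.05 over 12428 genes). SE were derived from the F statistic. Number 2 against number 1 was fitted with group means and a term for the number. A term for the STAT3KO effect by number was added after the values were seen. Named beside the members were Stat3, Cd4, Cd8a, Cd8b1, Irf4, the called genes of highest and lowest log2 fold change of each list, and the 3 genes nearest in profile (mean log2 CPM of at least 3). Bag3 was chosen as an example after its values were seen. The members and lists were chosen with earlier results of these data known. On simulated counts of the STAT3KO comparison in CD4 T cells, with 200 of 12187 tested genes changed 4-fold, 100% were recovered with 9 false calls. Recovery of changes smaller than 4-fold, such as those of the members in that comparison, was not tested. The simulation gave all genes the same dispersion and no difference between the numbers. Recovery for genes with a spread as large as that of Jun or Fos was thus not tested either. Alternatives were total counts or RLE size factors, minimum count 50 or no filter, the likelihood-ratio test, DESeq2 1.42.0, limma 3.58.1 on log2(RPKM + 1) or log2(RPKM + 0.1), only the 4 libraries compared, a replicate block, and leaving out each library. At 20171396 to 23282757 counts a library, 3 counts (the limit of a count of 0) are 0.129 to 0.149 CPM, which covers counting error only. The libraries of a group differed by more than sampling noise (chi-square per gene 23 to 65.9).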

Additional observations from a re-analysis of the deposited data

Results flagged for a closer look

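The STAT3KO effect differed between the libraries of number 2 and of number 1 for 4 of 9 members tested. The test of that difference was chosen after the values were seen, and it called 0.861% of all genes. The difference was 2.7 on the log2 scale for Atf3, 1.01 for Fosl2, 1.28 for Fosb and 0.49 for Junb. Atf3 and Fosb were below WT in both cell types in number 1 and above WT in both in number 2, whereas Fosl2 and Junb were below WT in all 4 pairs, by less in number 2. Of 27 other basic leucine zipper factors, 1 was called higher and 1 lower on this term, and of 24 MAP kinases and other upstream genes 0 were. Of other lists, 5 of 26 immediate-early, 2 of 11 heat shock and 3 of 30 linked T cell genes were called on it, all higher. Among them was Hspa1a, with a difference of 4.52 (SE 0.40, edgeR adjusted p 0.000364), while Irf4 had 0.66 (SE 0.13, edgeR adjusted p 0.0365). No gene, and no member, differed in its STAT3KO effect between CD8 and CD4 T cells by the edgeR quasi-likelihood test, where 982 genes had an unadjusted p under 0.05. Other fits called 44 genes (no filter), 137 (likelihood-ratio test), 188 (DESeq2) and 403 (replicate block), with no member among them.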

How the results depend on the processing

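Members called were counted under each alternative. In STAT3KO against WT CD4 T cells, the count of 1 became 2 with total counts or the likelihood-ratio test. It became 3 with no filter or DESeq2. Of all 12428 genes, 1444 were called in the fit with group means, 1467 with total counts and 1907 by the likelihood-ratio test. With no filter 1573 of 17623 were called, and with DESeq2 1847 of 11946. In CD8 T cells the count of 0 became 1 with DESeq2, where calls over all genes went from 257 of 12428 to 885 of 11223. For CD8 against CD4 in STAT3KO the count of 2 became 4 with only the 4 libraries compared. It became 3 with total counts, no filter, the likelihood-ratio test or DESeq2. Calls over all genes were 1555 of 12428 with group means and 1676 of 11961 with only the 4 libraries. They were 1599 with total counts and 2010 by the likelihood-ratio test. With no filter they were 1663 of 17623, and with DESeq2 1978 of 12187. In WT the count of 3 became 4 with no filter or the likelihood-ratio test, and that of 2 between the numbers became 3. Calls over all genes in WT went from 2960 to 2965 of 17623 with no filter and to 3254 by the likelihood-ratio test. Those between the numbers went from 2872 to 3026 of 17623 and to 3453. For the difference of the STAT3KO effects by number, the count of 4 became 2 with total counts or a minimum count of 50. It became 3 with DESeq2 and 1 with limma on log2(RPKM + 1) or log2(RPKM + 0.1). Calls over all genes on that term went from 107 to 55 with total counts and to 93 of 10548 with a minimum count of 50. They were 84 of 9536 with DESeq2, and 4 and 7 with limma. Leaving out single libraries gave 0 to 1 calls for STAT3KO in CD4, 0 in CD8 and in the difference between them, 2 to 4 for CD8 against CD4 in WT, 0 to 2 in STAT3KO, 2 to 5 between the numbers and 2 to 4 for the effect by number. Causes of these moves were not tested.

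The labels do not say what a number marks, and the 4 libraries of each number have titles with serial numbers near each other. Deviations from the group means of libraries with the same number correlated at 0.44 to 0.712 across 12428 genes. With the replicate block, 6 members were called in STAT3KO CD4 (Jun -0.67, Junb -0.52, Jund -0.54, Fos -0.75, Fosl2 -0.72 and Batf -0.58, edgeR adjusted p 0.00137 to 0.0475), 3 in STAT3KO CD8 (Jun -0.52, Fos -0.44 and Batf -0.47, edgeR adjusted p 0.0141 to 0.0341), 6 in CD8 against CD4 in WT, 6 in STAT3KO, and 0 in the difference between cell types. Calls over all genes rose too, from 1444 to 3747, from 257 to 2258, from 2960 to 5232, from 1555 to 3689 and from 0 to 403 of 12428.

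Directions turned for values that were not called. In STAT3KO CD8, Atf3 was at 0.12 with log2(RPKM + 1) and 0.26 with log2(RPKM + 0.1). The difference of effects between cell types was -0.08 for Fosb with either, and Batf between the numbers was 0.01 with total counts. Leaving out single libraries turned the direction of these values as well, over the ranges given. In STAT3KO CD4 they were Jun (-2.05 to 0.67), Fos (-1.62 to 0.12), Fosb (-0.68 to 0.09) and Atf3 (-0.55 to 2.04), and in STAT3KO CD8 Jun (-1.54 to 0.51), Fos (-1.01 to 0.13), Fosb (-1.06 to 0.26), Fosl1 (-0.21 to 0.52) and Atf3 (-1.16 to 1.73). In the difference between cell types they were Jun (-1.21 to 1.5), Junb (-0.03 to 0.36), Fos (-0.58 to 1.16), Fosb (-0.7 to 0.6), Fosl2 (-0.21 to 0.59), Batf (-0.04 to 0.26) and Atf3 (-2.39 to 1.51). For CD8 against CD4 they were Jun (-2.12 to 0.29), Fosl1 (-1.18 to 0.23) and Atf3 (-3 to 0.91) in WT and Jun (-1.93 to 0.43) in STAT3KO. Between the numbers they were Fosb (-0.21 to 0.48) and Batf (-0.11 to 0.06), and for the effect by number Jun (-0.19 to 0.27) and Fos (-0.16 to 0.31). At 0 to 17 counts a library, depth limits what can be said of Batf3.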
